A study of Mus musculus with 2 samples.

Results

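The genes described here are 43 DNA replication and S phase genes, read out by single-cell RNA sequencing of Terc-/- mouse embryonic stem cells, in which the gene for the RNA component of telomerase is deleted. They were chosen by name for their place in replication, from 38458 gene columns, and all 43 had a column in both tables. They were grouped by step into origin licensing (5 genes), the replicative helicase (12), the polymerases (8), the sliding clamp, its loader and lagging-strand maturation (8), nucleotide supply (5) and S phase regulators (5). The cells were of line DKO741, made from E14 stem cells by replacing both Terc alleles with a targeting construct, and both groups carry this deletion. The PD100 culture, labelled passage 100, had not yet turned to alternative lengthening of telomeres (ALT), and the PD800 culture, labelled passage 800, was surviving by ALT. A single clone stands for the genotype, and no Terc-positive cells were sequenced in this way. Stem cells were kept on fibroblast feeders for maintenance and taken feeder-free for the experiment.

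Before each S phase, the origin recognition complex and Cdc6 load the Mcm2 to Mcm7 ring onto DNA as an inactive double hexamer. Cdc45 and the GINS proteins then join the ring and turn it into the active helicase, DNA polymerase alpha with its primase lays down primers, and polymerases delta and epsilon extend them behind the Pcna clamp. Embryonic stem cells have a short G1 phase and spend a large part of their cycle in S phase. Many replication genes are targets of the E2F transcription factors.

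Each time point had 1 library, prepared by inDrops, in which cells are barcoded in droplets and each captured message carries a unique molecular identifier (UMI). Replicate error is thus unknown and nothing was tested. Intervals are at 95%. Those of sums and ratios cover counting error only. Those of medians over genes reflect the spread between genes, taken as if independent, and neither kind measures replicate error. Library and time point cannot be told apart. After the filter of the study (1000 UMIs or more, at most 20% mitochondrial UMIs), 814 PD100 cells with 1826233 UMIs and 900 PD800 cells with 2580963 UMIs were left, with medians of 2151 and 2701.5 UMIs per cell. These are more cells than the study counts after its filter, so the sets of cells are not identical. The libraries shared 21 barcode names, 8 of them among the cells kept. Terc had 0 UMIs in both libraries, where 3 counts would have been 1.64 and 1.16 CPM (UMIs scaled to the same library total). With no Terc-positive library to compare, this 0 could not be read as a sign of the deletion. The 12 stem cell markers summed to 13059 CPM in PD100 and 13136 CPM in PD800, and all 12 were detected in either library. The 17 endoderm markers summed to 1176 and 159 CPM, with Gata6, Srgn and Ctsh at 0 in PD800, and 8 fibroblast markers to 16.4 and 12.8 CPM.

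Over 6984 genes with 50 UMIs or more in both libraries together, called tested genes, the median log2 ratio of PD800 to PD100 CPM was -0.34. Ratios are therefore given mainly as relative log2 ratios, which have this median subtracted and do not depend on how the library totals are scaled. A relative value below 0 can still be a plain value above 0 under another scaling. Median-of-ratios scaling put the median of all tested genes at 0.13.

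Of the 43 genes, 42 were tested, and only Ccne2 was too rare. Most lay slightly below the median of all genes, and a pair of polymerase genes lay far above it. The 42 genes had a median relative log2 ratio of -0.21 (-0.41 to -0.09, order-statistic interval), with 29 below and 13 above the median of all tested genes. On the plain scale, 6 of them were 2-fold or more lower in PD800 (Orc1, Cdc6, Mcm3, Mcm5, Gins4 and Pold2), against 16.9% of all tested genes, and 2 were 2-fold or more higher (Pola1 and Pola2), against 9.22%. Relative to all genes, 1 was lower (Pold2; 7.79% of all tested genes) and the same 2 were higher (13.9%). With median-of-ratios scaling, 0 were 2-fold lower and 3 were higher, Rfc3 joining the pair at a log2 ratio of 1.06. The shares of all tested genes past 2-fold under this scaling were not taken, so these counts stand without a background. On the plain and relative scales no share of the members was above that of all tested genes, so the counts alone set nothing apart.

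**Figure D1:**
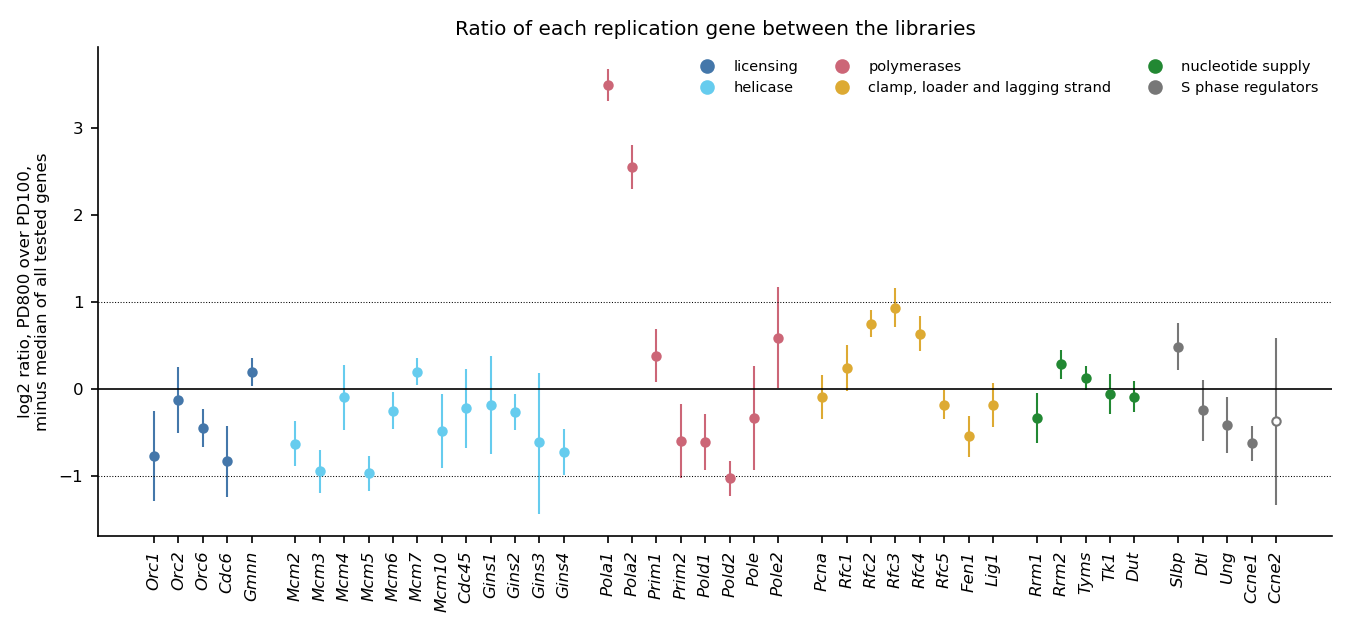
Relative log2 ratio (PD800 over PD100, minus the median of all tested genes) of each of the 43 genes, coloured by step, with 95% counting intervals; dotted lines mark 2-fold and the open point is Ccne2, with fewer than 50 UMIs. Pola1 and Pola2 lie at 3.49 and 2.54, 11 of the 12 helicase genes lie below 0, and 4 of the 5 clamp loader genes lie above 0.

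Origin licensing genes were mostly lower in PD800. Orc1, a subunit of the origin recognition complex that binds ATP, had 84 UMIs in PD100 and 55 in PD800, or 46.0 and 21.3 CPM, 2.16-fold lower in PD800. Cdc6, the ATPase that helps load the Mcm ring, went from 136 to 85 UMIs, a relative log2 ratio of -0.84 (-1.24 to -0.43). Orc6, another origin recognition subunit, had 389 and 316 UMIs (relative -0.46). These 3 genes had intervals that lay below 0 on the relative scale. For Orc2, which belongs to the same complex, the 116 and 118 UMIs gave a relative value of -0.13 (-0.51 to 0.25). Gmnn encodes geminin, which blocks licensing by binding Cdt1, and it was the exception, with 549 and 700 UMIs and a relative value of 0.19 (0.03 to 0.36). The 3 origin recognition subunits together held 589 UMIs in PD100 and 489 in PD800, or 323 and 189 CPM.

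The helicase genes were nearly all on the lower side of the median of all genes, over a range of -0.97 to 0.19 on the relative scale. Summed over 12 genes they went from 1835 CPM (1774 to 1899) to 1104 CPM (1064 to 1146) with exact Poisson intervals, a plain log2 ratio of -0.73 (-0.81 to -0.66), and 11 of 12 were below the median of all tested genes. Their median relative log2 ratio was -0.38 (-0.73 to -0.18), and it stayed between -0.52 and -0.27 under all 13 alternatives listed for it. Those that only rescale the library totals could not move it. Within the ring itself the subunits differed, although they act in equal number in the hexamer. Mcm5 had 576 UMIs in PD100 and 327 in PD800 (315 and 127 CPM), a relative value of -0.97 (-1.17 to -0.78), and Mcm3 had 369 and 213 UMIs, at -0.95 (-1.20 to -0.70). Mcm2 lay at -0.63 (296 and 213 UMIs) and Mcm6 at -0.25 (390 and 365). Mcm4, with 121 and 126 UMIs, lay at -0.10, an interval of -0.47 to 0.27 that includes 0. Mcm7 alone was above the median of all genes, with 609 and 777 UMIs and a relative value of 0.19 (0.04 to 0.35). The intervals of Mcm3 and Mcm5 did not overlap that of Mcm7.

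Cdc45 and the GINS complex complete the active helicase, and Mcm10 helps to activate it. All 4 GINS subunits were below the median of all genes, and their sum went from 436 to 256 CPM. Gins4 was lowest (294 and 198 UMIs, relative -0.73, -0.99 to -0.46). Gins2 had 413 and 383 UMIs (relative -0.27, -0.47 to -0.06), while Gins1 (56 and 55 UMIs, -0.18) and Gins3 (33 and 24 UMIs, -0.62) were too rare to place, with intervals that included 0. Mcm10 had 108 and 86 UMIs (-0.49, -0.91 to -0.06). Cdc45 had 87 and 83 UMIs (-0.23, -0.68 to 0.23).

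The polymerase genes split. Pola1, the catalytic subunit of DNA polymerase alpha (chromosome X, 93304767 to 93632155, minus strand of GRCm38), went from 272 UMIs in PD100 to 3404 in PD800. This was 149 CPM and 1319 CPM, 8.86-fold higher in PD800, with a plain log2 ratio of 3.15 (2.97 to 3.33). Pola2, the B subunit of the same enzyme (chromosome 19, 5940542 to 5964202, minus strand), had 151 and 982 UMIs, or 82.7 and 380.5 CPM, 4.60-fold higher (log2 2.20, 1.95 to 2.46). Both were higher under all 10 alternatives of filter and scaling, with relative values between 3.43 and 3.49 for Pola1 and between 2.41 and 2.54 for Pola2. Those alternatives that only rescale the library totals leave a relative value unchanged by construction. The other subunits of the same 4-part enzyme, the primases, did not share this size of difference. Prim1, which makes the RNA primer, had 155 and 225 UMIs (relative 0.38, 0.08 to 0.69), and Prim2, its large subunit, had 110 and 81 (relative -0.60, -1.03 to -0.17).

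Pold2, an accessory subunit of polymerase delta (chromosome 11), was at the opposite end of the 42 genes, with 555 UMIs in PD100 and 303 in PD800, 2.59-fold lower in PD800. Its relative log2 ratio was -1.03 (-1.24 to -0.83). Pold1, the catalytic subunit of the same polymerase, had 189 and 138 UMIs (relative -0.61, -0.94 to -0.29). The polymerase epsilon genes were rare. Pole, its catalytic subunit, had 52 and 46 UMIs with a relative value of -0.33 (-0.94 to 0.27), and Pole2, its second subunit, 42 and 70 with 0.58 (0.01 to 1.17). Summed, the 8 polymerase genes went from 836 to 2034 CPM, but without Pola1 and Pola2 the other 6 went from 604 (569 to 641) to 334 (312 to 357) CPM. The same pair set the sum of all 43 genes. It was 6763 CPM in PD100 and 6520 CPM in PD800, and 6531 and 4821 CPM without Pola1 and Pola2.

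**Figure D2:**
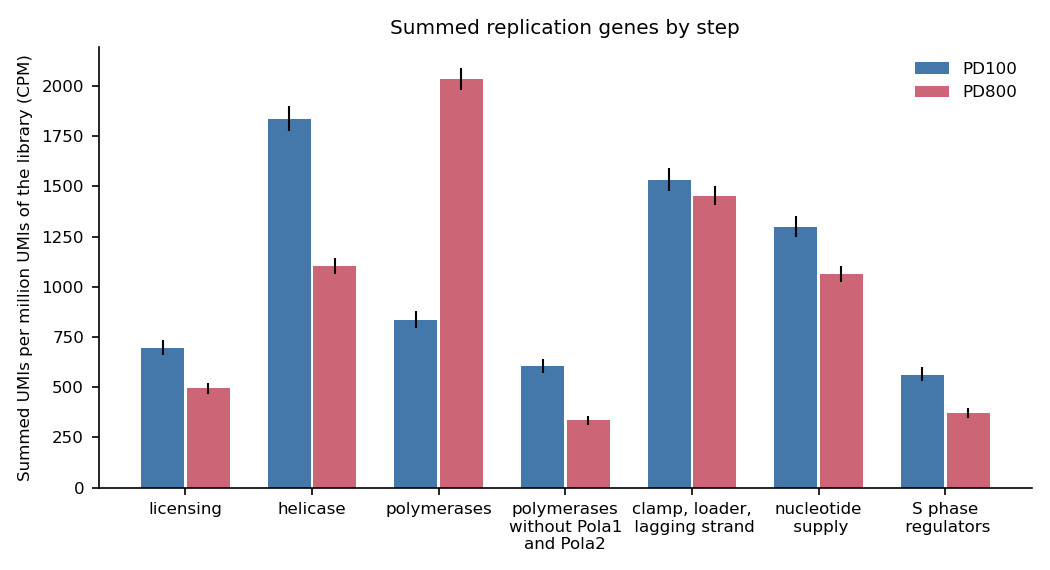
Summed CPM of the genes of each step in PD100 and PD800, with exact Poisson 95% intervals; the polymerases are shown with and without Pola1 and Pola2. The helicase genes went from 1835 to 1104 CPM, and the polymerases from 836 to 2034 CPM with the pair and from 604 to 334 CPM without it.

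The transcripts of Pola1 and Pola2 have a sequence in common that other genes also carry. In the GENCODE M21 transcripts, Pola1-202, a short processed transcript of 690 bases, and Pola2-202, a protein-coding transcript of 2391 bases, share 45 stretches of 20 bases that each occur in the same orientation in transcripts of 50 genes or more. In Pola2-202 the run of stretches ends 40 bases before the transcript end, in the 3' untranslated region, and in Pola1-202 it ends 80 bases before the end. One stretch from each gene is shown to let the copies be compared, with the 20 bases that are identical between them, and present in transcripts of 579 genes, in capitals. The Pola1 stretch is chrX:93623376-93623405 and the Pola2 stretch chr19:5941145-5941174, both on the minus strand of GRCm38.
Pola1: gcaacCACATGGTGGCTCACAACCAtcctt
Pola2: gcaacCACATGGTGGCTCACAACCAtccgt

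The letters resemble the B2 family of short interspersed repeats, although no repeat database was at hand to check this. Genes were called carriers where their transcripts held 10 or more of the 45 stretches in the sense orientation. Of the tested replication genes, 5 were carriers. These were Pola1 and Pola2 (45 stretches each), Rfc2 (22), Slbp (16) and Mcm2 (13). The stretches were picked as those that Pola1 and Pola2 share, so this pair were carriers by definition. Rfc2 and Slbp were above the median of all genes, and Mcm2 was below it. Of 6788 tested genes with transcripts, 386 besides this pair were carriers. In Mcm2 the stretches lie in Mcm2-205, annotated as a retained intron. In Pola1 too they lie only in transcripts not annotated as protein-coding, Pola1-202 and the retained intron Pola1-203. In Pola2, Rfc2 and Slbp they lie in protein-coding transcripts. The 37 other tested genes had a median relative log2 ratio of -0.25 and their highest value was 0.93 (Rfc3).

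Over the whole table, the 386 sense carriers other than Pola1 and Pola2 had a median relative log2 ratio of 1.64 (1.39 to 1.96). Of these, 61.9% were 2-fold or more higher on the relative scale, against 13.9% of all tested genes. The 241 genes with the stretches in antisense orientation alone had a median of -0.02 (-0.14 to 0.10), and the 5837 genes with none -0.06 (-0.08 to -0.03). In these 2 groups 7.88% and 9.97% were 2-fold or more higher. The 322 genes with some stretches, but fewer than 10 in either orientation, lay between, with a median of 0.29 (0.21 to 0.41) and 25.5%. Pola1 lay above the upper quartile of the sense carriers, which was 2.69, and Pola2 just below it. The grouping was made after the ratios of Pola1 and Pola2 had been seen. UMIs were counted per gene, so which transcript or which part of Pola1 they came from was not visible, and the part of the repeat in these ratios was not tested.

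**Figure D3:**
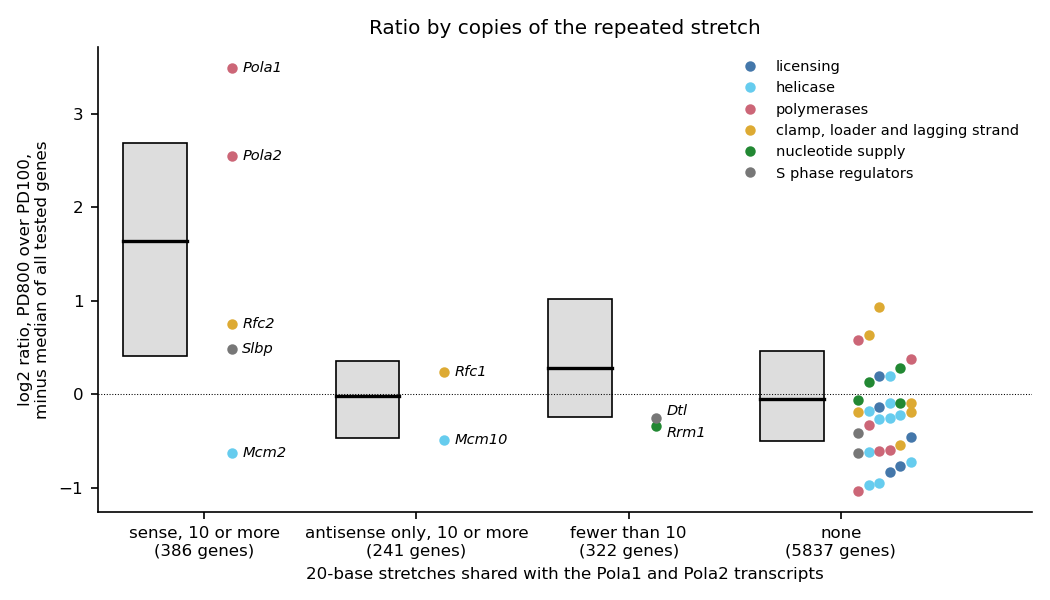
Relative log2 ratio by how many of the 45 repeated 20-base stretches a gene's transcripts hold; grey boxes give the median and quartiles of all tested genes in the group except Pola1 and Pola2, and points are the replication genes, coloured by step. Pola1 and Pola2 lie at 3.49 and 2.54 among sense carriers, whose box centres on 1.64, while genes with antisense copies alone or none centre on -0.02 and -0.06.

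From cell to cell, Pola1 UMIs in PD800 were spread widely. They were found in 781 of 900 cells, against 199 of 814 PD100 cells, and no cell held more than 21. Pola2 UMIs were found in 529 PD800 cells and 120 PD100 cells, with at most 7 in a cell. No background share can be set beside these numbers, since no cells known to lack the genes were present, and the PD800 cells were deeper. After thinning each cell at random to 1000 UMIs, the variance over the mean (Fano factor, 1 for a Poisson count) of Pola1 was 1.11 in PD100 and 1.46 in PD800, and of Pola2 1.10 and 1.05. In the same thinned PD800 cells, Pola1 counts had a Pearson correlation of 0.38 with the summed UMIs of the other carriers, and Pola2 counts 0.23, over 900 cells. In PD100 the values were 0.04 and 0.13 over 814 cells. Rfc2 gave -0.02 in PD100 and -0.0043 in PD800. Pola1 and Pola2 correlated with each other at 0.10 in PD800 and -0.000442 in PD100. Averaged over all possible draws of 1000 UMIs, Pola1 and Pola2 gave 0.356 and 0.190 with the other carriers in PD800, and 0.061 and 0.085 in PD100. On this average the carriers Slbp and Mcm2 gave -0.011 each in PD800, and 0.0065 and -0.036 in PD100. Low counts limit the PD100 values. Pola1 and Pola2 held 272 and 151 UMIs over all kept PD100 cells, against 3404 and 982 in PD800, so the libraries are not compared at equal counts. The other carriers held a mean of 39.2 UMIs per thinned cell in PD100 and 115 in PD800. All these correlations are descriptions over cells that share a library and a fixed total.

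The clamp loader genes went the other way from the helicase. Rfc1 to Rfc5 encode the pentamer that opens the Pcna ring and places it on primed DNA, and 4 of 5 were above the median of all genes. Rfc3 (chromosome 5) had 246 UMIs in PD100 and 522 in PD800, 135 and 202 CPM, a relative value of 0.93 (0.71 to 1.15). Rfc2 had 525 and 983 UMIs (0.75, 0.59 to 0.90) and Rfc4 had 333 and 575 (0.63, 0.43 to 0.83). The intervals of these 3 genes also lay above 0 on the plain scale. Rfc1, the large subunit, had 215 and 282 UMIs (relative 0.23, -0.03 to 0.50), and Rfc5 was the exception with 607 and 595 (relative -0.19, -0.35 to -0.02). The 5 genes together went from 1055 (1008 to 1103) to 1146 (1105 to 1188) CPM. Rfc2, a carrier of the repeated stretch, went from 287 to 381 CPM within this sum, about as large a rise as that of the sum. The sums of the origin recognition, Mcm and GINS subunits were lower in PD800 on the same plain scale.

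The clamp itself did not share this. Pcna had 256 and 268 UMIs, a relative value of -0.09 (-0.34 to 0.16). Fen1, the nuclease that trims the flaps between Okazaki fragments, had 351 and 268 UMIs (relative -0.55, -0.78 to -0.31). Lig1, the ligase that seals them, had 267 and 261 UMIs (relative -0.19, -0.44 to 0.06).

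Nucleotide supply genes stayed close to the median of all genes. Their sum was 1298 CPM in PD100 and 1064 CPM in PD800, and their median relative log2 ratio was -0.06 (range over the genes -0.34 to 0.28). The subunits of ribonucleotide reductase, which makes deoxynucleotides from ribonucleotides, parted. Rrm1, the large subunit, had 220 and 194 UMIs (relative -0.34, -0.62 to -0.05), and Rrm2, the S phase small subunit, 517 and 701 (relative 0.28, 0.12 to 0.45), so that their intervals did not overlap. Tyms, which makes thymidylate, had 802 and 976 UMIs (0.13, -0.01 to 0.26). Tk1, the thymidine salvage kinase, had 306 and 327 (-0.06), and Dut, which clears dUTP, had 525 and 549 (-0.09). The last 3 could not be told from the median of all genes at this depth.

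Among the S phase regulators, Ccne1, the cyclin that drives entry into S phase with Cdk2, had 494 UMIs in PD100 and 357 in PD800, 270.5 and 138 CPM, a relative value of -0.63 (-0.83 to -0.43). Its paralogue Ccne2 had 22 and 19 UMIs, too few to compare. Ung, which removes uracil from DNA, had 178 and 149 UMIs (relative -0.41, -0.74 to -0.09). Dtl, the substrate receptor of the ligase that degrades Cdt1 in S phase, had 146 and 137 (relative -0.25, -0.60 to 0.10). Slbp, which binds the stem loop of histone messages, was the only regulator above the median, with 188 and 293 UMIs (relative 0.48, 0.21 to 0.76).

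A list of 78 other replication genes was read in the same way, and 64 of them were tested. Their median relative log2 ratio was -0.09 (-0.27 to 0.05), with 38 below and 26 above the median of all genes. On the plain scale 11 of the 64 were 2-fold or more lower, a share close to the 16.9% of all tested genes, and 3 were higher, below the 9.22% of all tested genes. The lower ones with the firmest counts were Dna2, a nuclease of the lagging strand (48 and 14 UMIs, log2 -2.28), Gart, a purine synthesis enzyme (2455 and 1426, -1.28), and Cdk4, a G1 kinase (1082 and 621, -1.30). Rnaseh2a, which removes RNA from DNA (394 and 215, -1.37), Shmt1, an enzyme of one-carbon metabolism (461 and 267, -1.29), and Cdt1, the licensing factor that geminin blocks (369 and 223, -1.23), were also among them. The higher ones were Samhd1, which breaks down deoxynucleotides (340 and 2748 UMIs, 2.52), Rrm2b, the p53-inducible reductase subunit (96 and 579, 2.09), and Ticrr, which promotes origin firing (94 and 480, 1.85). All 3 carry the repeated stretch in sense orientation, as do Chaf1b and Ccnd3, and 4 of these 5 carriers were above the median of all genes. The 25 genes of G2 and mitosis had a median relative log2 ratio of 0.05 (-0.09 to 0.49).

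The ratios of the replication genes also went with those of genes near them on the chromosome. For each tested member, the median relative log2 ratio of up to 20 near tested genes that are not members was taken. These were the nearest 10 on each side where the chromosome allowed. Over the 40 members other than Pola1 and Pola2, the Pearson correlation of a member's value with that of its neighbours was 0.57 and Spearman's rho was 0.58, as a description over genes that share 2 libraries. Subtracting the neighbours' median reduced the SD over these members from 0.49 to 0.40. With Pola1 and Pola2 kept in, over 42 members, the Pearson correlation was 0.35 and rho 0.52. The SD then went from 0.85 to 0.80. No such value for other tested genes is given here, so this is not set apart as a trait of the replication genes. All 5 tested members on chromosome 8 (Orc6, Mcm5, Gins2, Gins3 and Gins4) were below 0, with a median of -0.62, and the 389 other tested genes of chromosome 8 had a median of -0.53. The 9 members on chromosome 5 had a median of 0.19, and the other 460 genes of that chromosome 0.15. Rfc3, at 0.93, had only 10 such neighbours, with a median of 0.92. Rfc2 and Rfc4 lay 0.84 and 0.51 above their neighbours. The helicase genes stayed low in this reading too, with 11 of 12 below their neighbours and a median difference of -0.36, and Gins2 was then the exception in place of Mcm7. Pola1 and Pola2 remained 3.09 and 3.05 above theirs. Gene dosage was not measured in these libraries. From whole-genome sequencing of this line, the study reports copy-number changes at the long-arm ends of chromosomes after ALT activation. The end of the chromosome that carries Rfc3 is among the few the study names as changed only at the latest time point. The part of gene dosage in these ratios was not tested.

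**Figure D4:**
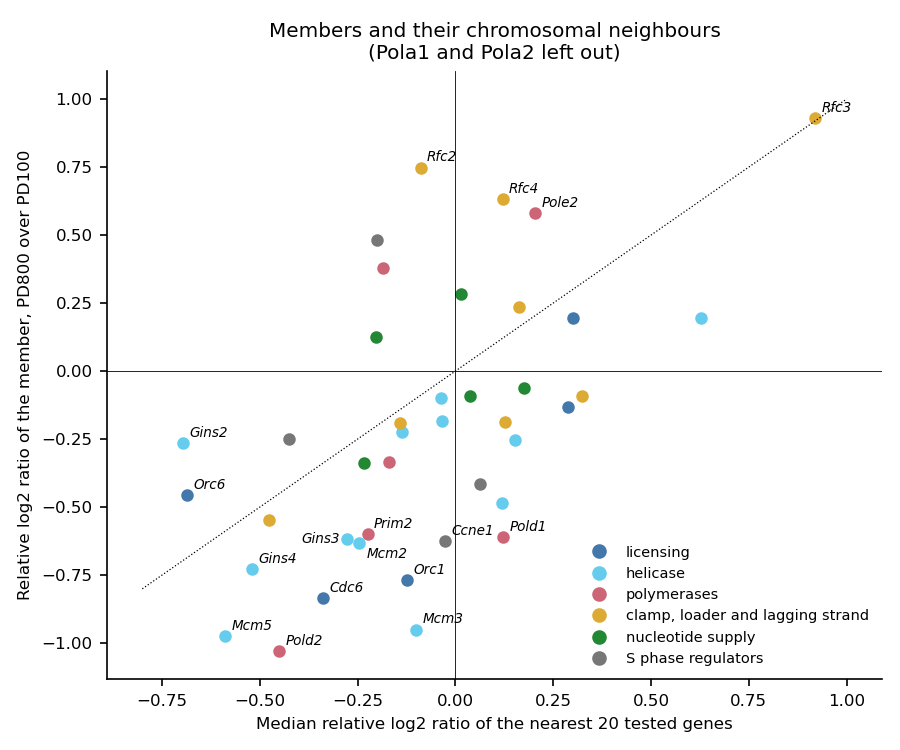
Relative log2 ratio of 40 tested replication genes against the median of up to 20 near tested genes that are not members, coloured by step. The dotted line marks equality, and Pola1 and Pola2 are left out. Rfc3 sits on the line at 0.93 and 0.92, Mcm5 and Gins4 lie low beside low neighbours on chromosome 8, and Rfc2 lies 0.84 above its neighbours.

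Promoter sequence was available for 34 of the 43 genes (RefSeq, GRCm38.p6, from 250 bases before to 50 bases after the start). E2F-type letters, taken as TTTCCCGC, TTTGGCGC, TTTGCCGC or TTTCGCGC on either strand, were found in 13 of the 34 (38.2%), against 2.61% of 27025 genes with a promoter and 5.57% of 5330 tested genes. The 13 were Orc1, Cdc6, Mcm3, Mcm5, Mcm6, Mcm7, Gins3, Pola1, Pold1, Pole2, Rfc3, Lig1 and Dtl. CCAAT was present in 61.8% of the 34, in 41.1% of all genes and in 44.3% of tested genes. GGGCGG was present in 73.5%, 38.2% and 71.8%, and TTTGAA in 14.7%, 20.2% and 14.3%, so that for these 2 the members were close to the tested genes. Windows around the letters are shown for the 5 genes with a match before the start whose window overlapped no annotated exon. The matching letters are in capitals and the adjoining bases in lower case. TTTCGCGC and TTTGGCGC overlap on opposite strands in Mcm5 and in Mcm6, where both copies are capitalised as 1 run. The windows are at chr11:98907993-98908040 on the plus strand (Cdc6), chr8:75109336-75109383 on the plus strand (Mcm5) and chr1:128359788-128359835 on the minus strand (Mcm6). Those of Pola1 and Dtl are at chrX:93632266-93632313 and chr1:191575545-191575572, both on the minus strand.
Cdc6: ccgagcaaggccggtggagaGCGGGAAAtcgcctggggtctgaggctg
Mcm5: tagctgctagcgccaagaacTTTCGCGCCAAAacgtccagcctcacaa
Mcm6: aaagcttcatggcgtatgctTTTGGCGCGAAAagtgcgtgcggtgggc
Pola1: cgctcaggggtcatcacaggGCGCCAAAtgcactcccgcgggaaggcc
Dtl: atcagaaagcgtgacgtcagTTTGGCGC

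The letters did not sort the genes by their ratio. The 13 genes with them had a median relative log2 ratio of -0.25, with 9 below 0, and the 21 without them -0.13, with 14 below 0. Mcm5 and Mcm6, which both hold the overlapping pair, lay at -0.97 and -0.25. Pola1, with the letters, and Pola2, without them, were the 2 highest.

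Covariation between cells within each library was low at the depth to which all cells could be thinned. In cells thinned to 1000 UMIs, the 43 genes summed to a mean of 6.80 UMIs in PD100 and 6.53 in PD800, with medians of 7 and 6, and the highest cells held 25 and 17. Genes that vary together between cells add a covariance part to the Fano factor of their sum. The Fano factor of the sum was 1.41 in PD100 and 1.24 in PD800, of which covariance gave 0.0898 and 0.006. Averaged over all possible draws of 1000 UMIs, the covariance part was 0.141 and 0.0709, and without Pola1 and Pola2 it was 0.150 and 0.166. For the 25 genes of G2 and mitosis in the same cells, averaged alike, it was 0.222 and 0.420. The libraries were not ranked by these values of the 43 genes, since their order turned when Pola1 and Pola2, or the cells called doublets, were left out.

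**Figure D5:**
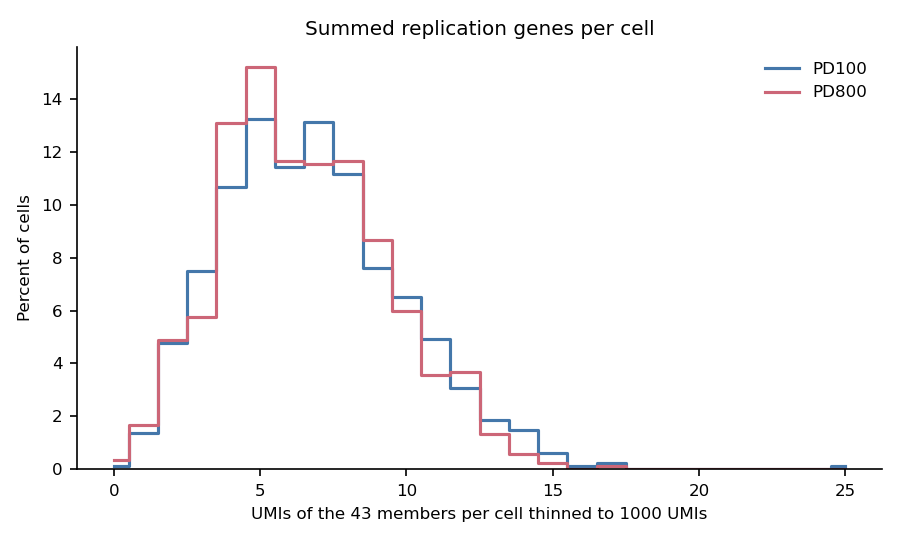
Distribution over cells of the summed UMIs of the 43 genes, each cell thinned to 1000 UMIs, as a percent of the 814 PD100 and 900 PD800 cells. The distributions overlap over most of their range, with medians of 7 and 6 UMIs, and 1 PD100 cell stands apart at 25 UMIs.

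Between steps the picture was the same. The 15 pairs of steps had Pearson correlations over thinned cells with a median of 0.00409 in PD100 (-0.04 to 0.07) and 0.0066 in PD800 (-0.10 to 0.06). The highest pair was licensing with the clamp group in PD100 and helicase with polymerases in PD800, and 8 of 15 pairs were above 0 in either library. The summed members had a correlation of 0.00583 with the G2 and mitosis sum in PD100 and -0.06 in PD800. Averaged over all possible draws of 1000 UMIs, these were 0.00041 and -0.093. On this average the step pairs had medians of 0.0089 and 0.0219, and 9 and 10 of 15 pairs were above 0. Of single genes with 200 UMIs or more, the 10 most correlated with the summed members reached 0.13 in PD100 (Fcf1, Bcas2, Pa2g4, Psmd7, Samhd1, Wdr12, 0610007P14Rik, Cisd1, Cacybp and Ube2j2). In PD800 they reached 0.14 (among them Gm20274, Nudt5, Ttf1, Dennd5b, Aldh1a3, Gm26909, Gm10036, Snf8 and Snrnp40), and 0 genes were in both sets. At 1000 UMIs per cell, with fewer than 7 member UMIs on average, none of these values was large enough to read as coordinated expression. In cells thinned to 2000 UMIs, with shallower cells left out, the covariance part of the summed members was 0.418 in PD100 and 0.118 in PD800, so its size depends on the depth compared.

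In PD100, 47 cells held UMIs of 3 or more endoderm markers, and in PD800 0 cells did. In these 47 cells the 43 genes summed to 5198 CPM (4794 to 5627), below the 6870 CPM (6747 to 6996) of the other 767 PD100 cells. Without them the median relative log2 ratio of the members was -0.28. Cells had median mitochondrial shares of 1.23% (PD100) and 4.42% (PD800), and with mitochondrial genes left out of the totals the plain ratio of the members' sum was -0.00237 in place of -0.05. Of the 43 genes, 8 overlap another gene with 50 UMIs or more in the annotation (Orc2, Orc6, Mcm7, Gins2, Rfc4, Rfc5, Fen1 and Ccne2), and whether strand was used in counting is not given in the sources used here.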

How the data were processed

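The values deposited by the authors are raw UMI counts, with a row for each barcode and a column for each gene. Reads had been run through the inDrops pipeline against mouse transcripts of build mm10 (GRCm38). The annotation release is not given in the sources used here. Barcodes with fewer than 1000 UMIs or over 20% mitochondrial UMIs were left out (477 of 1291 in PD100, 766 of 1666 in PD800). Counts were summed per library and divided by the library total. Intervals at 95% were exact Poisson for sums, order-statistic for medians and, for ratios, exact and conditional on the total (Clopper-Pearson). For a median of fewer than 6 genes, the full range is given in place of an interval. Cells were thinned without replacement to 1000 UMIs (seed 1). Scrublet in Scanpy 1.11.5 called 14 PD100 and 8 PD800 doublets, which were kept in the main values and left out in an alternative. Positions and transcripts came from GENCODE M21. All 43 members were named, with the other replication genes that differed by 2-fold or more (at most 6 in each direction, by the interval end nearer to no change) and the 10 genes most correlated with the members per library, 1 of which is not reported here. The members and lists were chosen with earlier results of these data known. The steps were tested on simulated data. Software was NumPy 2.4.6, pandas 2.3.3, matplotlib 3.10.9 and SciPy 1.17.1 under Python 3.11.15.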

Additional observations from a re-analysis of the deposited data

Results flagged for a closer look

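A signal was also present in the barcodes that the cell filter left out, 477 in PD100 and 766 in PD800, which enter the comparisons only in the alternative with no filter on barcodes. In their summed counts, 246800 UMIs in PD100 and 458381 in PD800, the 43 members had a log2 ratio of -0.079 (-0.17 to 0.0083). Pola1 went from 35 to 500 UMIs there, at a log2 ratio of 2.94 (2.45 to 3.48). Pola2 went from 29 to 131 UMIs, at 1.28 (0.69 to 1.92). The interval of Pola1 overlapped that of the kept cells (2.97 to 3.33), and that of Pola2 lay below it (1.95 to 2.46). Without this pair the members went from 6528 to 5048 CPM in the barcodes left out.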

How the results depend on the processing

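No paired analysis was possible because each time point had 1 library. For single members, 382 of 419 values under the alternatives stayed within the counting interval, 37 moved out of it and 0 of the 2-fold differences changed sign. On the relative scale, 39 of 42 members kept their side of 0, and Gins1 (0.15, each cell weighted equally), Pole (0.17) and Pcna (0.00471, both with at least 2000 UMIs per cell) did not. Alternatives that only rescale the library totals could not change a side on this scale. Median-of-ratios scaling moved the plain medians to -0.077 (members), -0.25 (helicase), 0.15 (polymerases), 0.20 (clamp group), 0.069 (nucleotide supply) and 0.036 (other replication genes), the members' sum to 0.42 and the count of 2-fold lower members to 0, as it shifts all genes alike. The members' sum was -0.00237 without mitochondrial genes and 0.071 with carriers of the repeat left out of the total, which moved the members' median to -0.43. The polymerase median was 0.039 (plain) at a minimum of 200 UMIs, and on the relative scale -0.00957 without endoderm-marker cells, -0.061 with cells weighted equally and -0.47 without Pola1 and Pola2, or without all 5 carriers, when 0 members were 2-fold higher. The relative median of the clamp group was -0.00195 without endoderm-marker cells, -0.00293 at 200 UMIs and -0.091 without the 5 carriers. The Fano factor of the members was 1.94 in PD100 and 1.48 in PD800 when thinned to 2000 UMIs, 3.98 and 5.41 without thinning, and in PD800 1.36 with another seed and 1.37 without doublets. The covariance part was 0.418 in PD100 at 2000 UMIs, 2.27 and 3.52 without thinning, and 0.141 in PD800 without doublets. Correlations between steps had medians of 0.18 and 0.23 without thinning, where cells of unequal depth are compared. The alternatives without the repeat carriers or Pola1 and Pola2, without barcodes named in both libraries and the mean over all draws were chosen after seeing the data. Low depth per cell limits the rarer genes, such as Gins1, Gins3, Pole and Pole2.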
